A study of Heliconius melpomene cythera and Heliconius melpomene rosina with 32 samples.

Results

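The 200 genes described here are those whose transcripts fell most between 50% and 70% of pupal development in wings of the butterfly Heliconius melpomene. They were chosen by their values in these libraries, in CPM (the count of a row divided by the total of its library and multiplied by 1000000). Of 30720 rows in the count table, 18081 carry an annotated Heliconius gene ID and 5321 of those had a mean CPM of at least 10 and under 1000. In 636 of the 5321, or 12.0%, every one of the 16 libraries at 70% lay below every one of the 16 at 50%. A difference between wing regions at 50% under 0.5 on the log2 scale left 623, and the 200 with the lowest ratio of 70% to 50%, as log2((mean CPM at 70% + 1)/(mean CPM at 50% + 1)), were taken. The mirror pattern, with every library at 70% above every library at 50%, held for 485 of the 5321, or 9.11%. Because the fall chose the genes, it is described below and not tested.

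The study concerned iridescent blue structural colour, and mRNA from pupal wings was sequenced in 32 libraries from 16 individuals. H. melpomene cythera, from western Ecuador, has iridescent wings and H. melpomene rosina, from Panama, is matt black in the matching areas, and both came from captive stocks reared on Passiflora biflora. There were 4 individuals of each subspecies at 50% (individuals 1 to 4 cythera, 5 to 8 rosina) and 4 at 70% (9 to 12 cythera, 13 to 16 rosina). Each individual gave 2 libraries, 1 of the anterior hindwing, the region that bears a different type of scale, and 1 of the forewing and posterior hindwing together. Each group held 2 females and 2 males by the labels, except rosina at 70%, in which all 4 were male. No group carried an engineered allele or a drug treatment. The libraries are of whole dissected wing pieces, so fewer cells of a type and less RNA per cell cannot be told apart. A stage is also a set of different individuals, since no pupa was sampled at both.

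A butterfly wing scale grows from a single epidermal cell. In the first part of pupal life the scale cell sends out a flattened projection that lengthens on bundles of actin, and cuticle is laid down over it. Later the ridges and cross-ribs of the upper surface harden, pigments are made and the cell finally dies, leaving the cuticle as the adult scale. The stages sampled therefore come from a tissue in which gene programmes start and stop on a timetable.

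Libraries totalled between 20151439 and 45570497 counts, so that 3 counts, taken here as the floor of detection, corresponded to between 0.0658 and 0.149 CPM. These limits cover counting error only. The 10 most abundant rows took 16.2% to 28.3% of counts at 50% and 31.7% to 41.8% at 70%. Individual 13, labelled rosina at 70%, stood apart from its label. Libraries were placed by multi-dimensional scaling on the 500 rows most different between each pair, out of 17902 expressed rows. On the second axis individual 13 lay at -0.79, among cythera at 70% (-1.11 to -0.73) and away from the other rosina at 70% (1.26 to 1.66). The study's methods state that an incorrectly labelled rosina individual was removed, without numbering it here. Individual 4, a cythera male at 50%, lay at -3.57 on the first axis, beyond the other individuals at 50% (-3.01 to -2.45). All individuals were kept, individual 13 is called labelled rosina, and values that either moves by over 1.5 times, or whose call either changes, are also given without it. For genes called between wing regions, only the number called without it is given.

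The label under which these genes were grouped, switched off, held for only some of them. The median member went from 205 CPM at 50% to 14.2 CPM at 70%, and a median of 9.96% of the level was left, with quartiles at 2.78% and 17.4%. By the share left, 30 genes kept less than 1%, 46 kept from 1% to under 5%, 24 from 5% to under 10% and 100 from 10% to under 25%. At 70%, 27 genes had a mean under 1 CPM and 173 were at 1 CPM or more. None was at or under 3 counts in all 16 libraries at 70%, 26 had no count in at least 1 of them, and 173 had more than 3 counts in every one. They are accordingly called here genes that fell, not genes that were off. In the plot of mean levels at both stages the members spread over more than 4 powers of 10 at 70%.

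**Figure D1:**
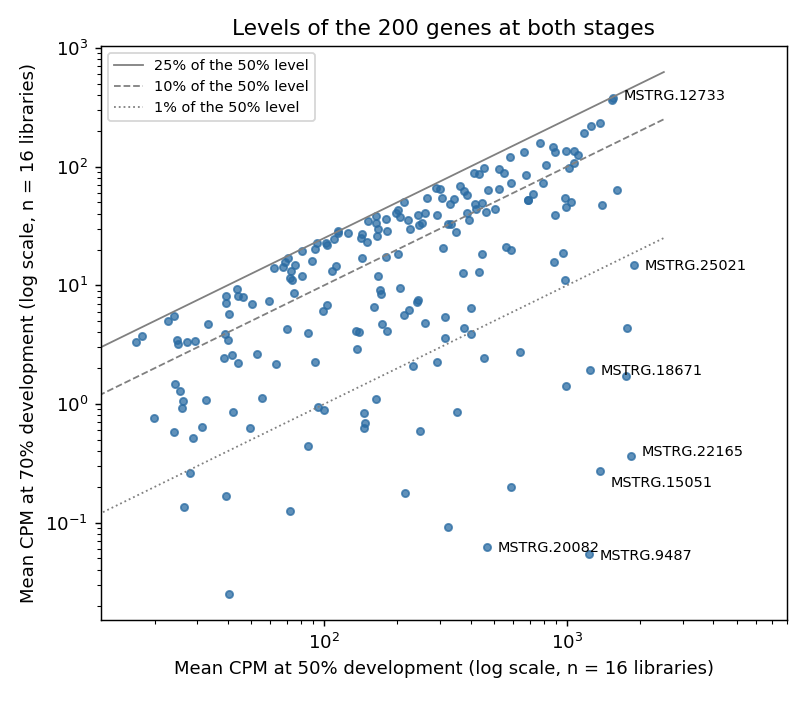
Mean CPM of each of the 200 genes at 50% (x axis) and 70% (y axis), both on log scales and each the mean of 16 libraries; lines mark 25%, 10% and 1% of the 50% level. All points lie under the 25% line because the rule chose them, and they range from 0.00443% to 24.9% left.

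MSTRG.9487 fell to the smallest share of its 50% level. At 50% it stood at 285, 1035, 59.6 and 3261 CPM in cythera individuals 1 to 4 and at 701, 731, 2626 and 1095 CPM in rosina individuals 5 to 8, each the mean of 2 wing regions. At 70% it had no count in 13 of 16 libraries and averaged 0.0542 CPM, which is under the floor of 3 counts. Its level at 50% varied by more than 50-fold between individuals, whereas its near absence at 70% was shared by all of them.

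MSTRG.15051 nearly vanished as well, from a steadier level. It stood between 1055 and 1852 CPM in the 8 individuals at 50% and between 0.114 and 0.465 CPM in the 8 at 70%. The means, 1362 and 0.272 CPM, differed 5009-fold. MSTRG.20082 was like it at a lower level, with 354, 464, 550, 679, 471, 388, 452 and 379 CPM in individuals 1 to 8 and no count in 11 of 16 libraries at 70%. In neither gene did any individual at 50% stand far from the rest.

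MSTRG.25865 stood at 791 to 2534 CPM at 50% and 0.437 to 4.96 CPM at 70%, a 1017-fold difference of means, with individuals 11 and 15 the highest at 70%. MSTRG.15340 ran from 278 to 1500.3 CPM at 50% and from 0 to 0.729 CPM at 70%. MSTRG.16503 ran from 239 to 2761 CPM and from 0.287 to 2.66 CPM, and MSTRG.887 from 333 to 5384 CPM and from 2.41 to 5.71 CPM. In these last 3 genes individual 4 was the highest at 50%. Over all 200 genes it was the highest of 8 in 62 and the lowest of 8 in 63. These tallies were not made over all rows, so they are not shown to be particular to the members.

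MSTRG.22165, ranked first by the rule, rested mainly on that individual. Its CPM in individuals 1 to 8 was 56.0, 237, 26.2, 13049, 131, 80.3, 902 and 104, so that individual 4 held 89.5% of its summed level at 50%. The ratio of the stage means was 5003 with all individuals and 602 without individual 4. It was low at 70% in every individual, at 0 to 0.723 CPM. MSTRG.18671 was more extreme, at 9.52, 48.7, 3.89, 9485, 5.72, 15.7, 334 and 10.8 CPM at 50% and 1.16 to 2.34 CPM at 70%. Individual 4 held 95.7% of its level at 50%, and the ratio of stage means dropped from 639 to 31.5 without that individual. MSTRG.10545 had 82.9% of its level at 50% in individual 4, at 2148 CPM against 16.2 to 160 CPM in the other 7, and its ratio of stage means dropped from 3501 to 683 without it.

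The most abundant gene at 50%, MSTRG.25021, went the other way in individual 4. It stood at 2254, 2119, 1898, 769, 2185, 1866, 1676 and 2273 CPM in individuals 1 to 8 and at 6.78 to 37.1 CPM at 70%, 0.791% of its 50% level. Individual 4 was the lowest at 50%, and individual 15 the highest at 70%. MSTRG.6348 averaged 1599 CPM at 50% and 63.0 CPM at 70%. At 70% it was at 126 CPM in individual 11 and 111 CPM in individual 15, against 37.2 to 48.5 CPM in the other 6. MSTRG.22679 went from 842 to 1990 CPM at 50% to between 31.5 and 64.5 CPM at 70%.

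Some of the most abundant members kept a high level. MSTRG.12733 was at 964 to 1886 CPM at 50% and at 315 to 489 CPM at 70%, and 24.5% of its level was left. MSTRG.22522, a row that joins 4 annotated IDs, went from 1525 to 366 CPM, and MSTRG.20733 from 1361 to 232 CPM. At 378 CPM, MSTRG.12733 at 70% was above the median level of the members at 50%. The largest shares left were 24.9% for MSTRG.1088, then MSTRG.12733, 24.4% for MSTRG.3215, 24.3% for MSTRG.20404 and 24.1% for MSTRG.14288. At the edge of the list, MSTRG.1088 and MSTRG.14965 were the last 2 taken, with log2 ratios of -1.97 and -1.95. MSTRG.7905 and MSTRG.11141, the first 2 not taken, had log2 ratios that both rounded to -1.94, so the cut falls in a continuous range.

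The table gives names for few genes, and 0 of its rows matched the RefSeq gene table for this species by ID. Among the members 2 carry a hand-given name, both of UDP-glycosyltransferases, enzymes that attach sugars to small lipophilic molecules and so make them more soluble. No pathway or cell type list could therefore be drawn, and the defining markers of the tissue could not be checked. Names for this enzyme family were given to 51 rows, of which 26 have an annotated ID and 6 lay in the level window of the rule.

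HmelUGT46E1 (MSTRG.22703) stood at 185, 98.8, 110 and 13.8 CPM in cythera at 50% and at 97.2, 104, 50.9 and 93.9 CPM in rosina. At 70% it was at 1.67, 2.80 and 3.03 CPM in cythera individuals 9, 10 and 11, at 0 CPM in individuals 12 to 15 and at 0.050 CPM in individual 16. The 2 libraries of each of individuals 9, 10 and 11 agreed on this, at 1.65 CPM or more in all 6, while 7 of the 8 libraries labelled rosina had no count. The subspecies overlapped, since cythera individual 12 had no count either. HmelUGT44A4 (MSTRG.18465) fell less, from 125 to 27.5 CPM, leaving 22.0%. Its level at 50% was 60.5, 129, 54.1 and 252 CPM in cythera and 115, 57.5, 264 and 67.1 CPM in rosina.

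Positions were not analysed here, but 4 pairs of members have consecutive locus numbers. MSTRG.2456 and MSTRG.2457, which also carry the sister annotation IDs HMEL010189g1 and HMEL010189g2, kept 12.7% and 13.2% of their levels. MSTRG.7831 and MSTRG.7832, again with sister IDs, kept 13.7% and 12.4%. In both pairs the share left was alike although the levels differed, at 1068 and 225 CPM in the first pair and 991 and 107 CPM in the second. The other pairs were less alike. MSTRG.3961 kept 0.0615% and its neighbour MSTRG.3962 2.45%, and MSTRG.18137 kept 0.515% and MSTRG.18138 4.61%, or 9.04% without individual 4. How reads were divided between neighbouring or similar genes is not given in the sources used here, so a pair may share reads. Rows that join 2 or more annotated IDs made up 42 of the 200 members, 21.0%, against 18.0% of the 5321 rows of the level window.

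Summed, the 200 genes took 5.34% to 12.1% of the counts in libraries at 50% and 0.522% to 0.749% at 70%. The mean over the 4 individuals at 50% was 7.65% ± 2.99 (SD, n = 4) in cythera, 6.21% ± 1.00 (n = 3) without individual 4, and 7.07% ± 1.03 (SD, n = 4) in rosina. At 70% it was 0.664% ± 0.0199 (SD, n = 4) in cythera and 0.658% ± 0.0648 (SD, n = 4) in individuals labelled rosina, or 0.647% ± 0.0747 (n = 3) without individual 13. The subspecies means differed by less than the spread at either stage. Scaling the libraries by TMM, a method that sets libraries level on the rows that change least, left a median of 10.3%. RLE, another scaling run in edgeR, left 10.2%, against 9.96% by total counts. The median log2 ratio of all 5321 rows in the window was -0.10 by total counts and -0.03 by either of the others.

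**Figure D2:**
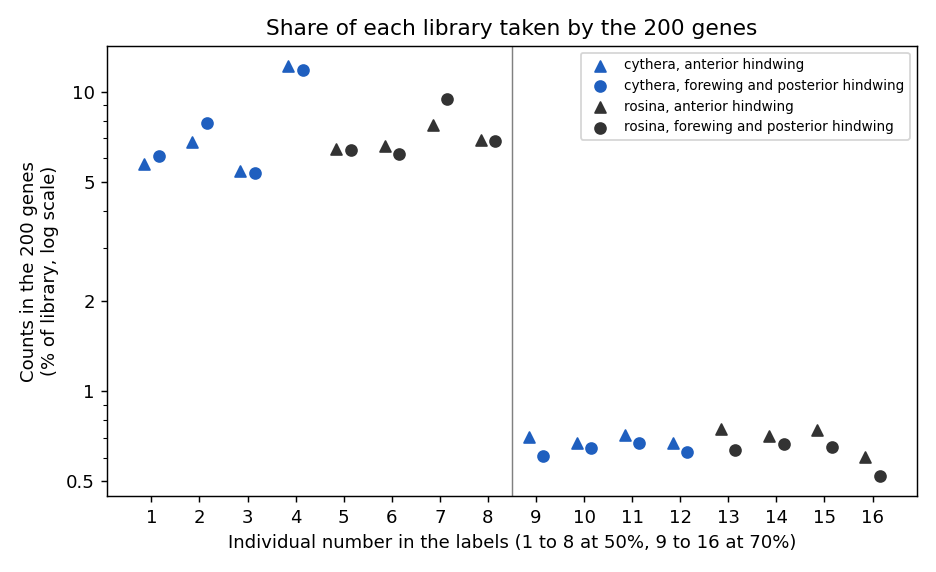
Percentage of each library's counts that fell in the 200 genes (y axis, log scale) for each of 16 individuals (x axis), with 1 point per library; triangles are anterior hindwing and circles forewing with posterior hindwing, blue cythera and black rosina as labelled. Individual 4 has the 2 highest points of the 16 at 50%, and all points at 70% lie between 0.522% and 0.749%.

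On the scale of log2(CPM + 1), individuals of 1 stage differed more at 50%. The SD of log2(CPM + 1) over the 8 individuals had a median of 0.57 over the members at 50% and 0.30 at 70%. The added 1 lowers the SD of genes near 0, and at 70% 27 members were under 1 CPM and 90 under 10 CPM. The 2 medians are therefore not directly comparable. Individual 4 was more than 2-fold above the mean of the other 7 in 52 genes, within 2-fold in 101 and below 0.5 times that mean in 47. With individual 4 left out of the reference, the other 7 individuals had 0 to 35 genes more than 2-fold above the mean of the remaining 6 and 2 to 38 below 0.5 times. The 35 belonged to individual 7, a rosina male, and the 38 to individual 3, a cythera female. With the 10 most abundant members left out, the rest took 8.97% of the counts of individual 4 and 4.42% to 6.72% in the other 7. With individual 4 kept in the reference, individual 3 had 48 genes below 0.5 times the mean of its other 7. The most above 2-fold among those 7 individuals was then 13, in individual 7. Individual 4 thus had the most genes above 2-fold with either reference. It had the most below 0.5 times only when it was left out of the reference of the others. None of these counts was made over all rows, so none can be read as particular to the members.

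The 52 genes that were high in individual 4 took 7.83% of its counts against 0.706% to 2.65% in the other 7. In 51 of them individual 4 was above all 7, and in 43 individual 7 was the highest of the remaining 7. The 47 low genes took 0.693% of its counts against 1.75% to 2.20%, and in 42 of them individual 4 was below all 7. The 101 genes between took 3.43% against 2.93% to 4.13%. These classes were made from the values of individual 4 and are a description of that animal. Their sizes were not counted over all rows. Since the level of individual 4 enters the 50% mean, the median share left is given without it: 6.27% in the high class, 13.5% in the middle and 8.13% in the low class.

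Low in individual 4 was MSTRG.23987, at 16.7 CPM against 222 to 1328 CPM in the other 7 and 0.376 to 4.75 CPM at 70%. MSTRG.13558 was at 24.1 CPM in individual 4 against 336 to 618 CPM, MSTRG.16928 at 10.5 against 109 to 232 CPM and MSTRG.25175 at 19.4 against 148 to 262 CPM. These 4 genes were chosen after their values were seen. In each, individual 4 was the lowest at 50%, and that all animals at 70% were lower still was fixed by the rule. HmelUGT46E1 was of the same kind, at 13.8 CPM against 50.9 to 185 CPM. High in individual 4 were, besides those above, MSTRG.18662 at 1381 CPM against 1.94 to 212 CPM, MSTRG.25860 at 649 CPM against 4.58 to 310 CPM, and MSTRG.18138 at 4359 CPM against 300.3 to 1286 CPM. Individual 7 was the highest of the other 7 in each of these 3. Without individual 4 the median share left over the 200 was 11.0%, 28 genes kept less than 1% and 9 kept over 25%, the highest 36.9%.

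**Figure D3:**
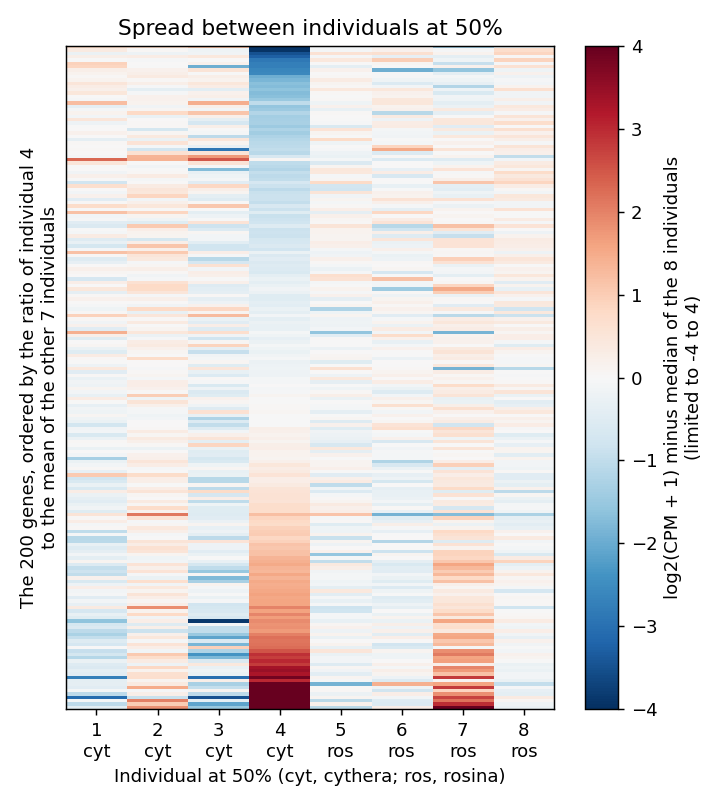
Each row is 1 of the 200 genes and each column 1 of the 8 individuals at 50%; colour is log2(CPM + 1), averaged over the 2 wing regions, minus the gene's median over the 8 individuals, limited to -4 to 4. Rows are ordered by the ratio of individual 4 to the other 7, from the 47 genes it had below 0.5 times (top) to the 52 it had above 2-fold (bottom), where individual 7 was the next highest in most.

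Subspecies were compared within each stage and wing region, with 4 individuals a side, by edgeR's quasi-likelihood test over all rows with Benjamini-Hochberg adjustment, calling a gene at an adjusted p (FDR) under 0.05. The rule did not use subspecies. At 50% in the forewing and posterior hindwing 1.64% of 12779 rows were called, and of the 200 members, all of which were tested, 2 were called. The unadjusted p was under 0.05 in 20 members, 10.0%, and in 12.8% of all rows. With individual 4 left out it was under 0.05 in 33 members, a count not made over all rows. The median log2 difference, cythera minus rosina, was 0.08 over members and 0.01 over all rows.

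MSTRG.21917 was higher in cythera. At 50% in the forewing and posterior hindwing it stood at 155.7, 175, 200.04 and 216 CPM in cythera and at 74.2, 58.2, 93.0 and 41.8 CPM in rosina, without overlap. The log2 difference was 1.59 (SE 0.24, edgeR FDR = 0.0215, n = 4 and 4). In the anterior hindwing of the same individuals it stood at 184 ± 34.3 CPM in cythera and 104 ± 30.5 CPM in rosina (SD, n = 4). At 70% it was at 3.01% of its 50% level and the subspecies overlapped. Leaving out individual 1, 2, 3, 5, 6 or 8 raised the edgeR FDR above the threshold, to at most 0.0649, with log2 differences of 1.42 to 1.73 over all 8 omissions.

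MSTRG.8913 was lower in cythera, at 58.5, 62.7, 55.7 and 38.8 CPM against 98.7, 101, 120 and 97.3 CPM in rosina, again without overlap. The log2 difference was -0.87 (SE 0.15, edgeR FDR = 0.0357, n = 4 and 4). It was called without individual 4 (log2 difference -0.75) but not without any other single individual, where the edgeR FDR was at most 0.0958 and the log2 difference -0.84 to -0.92. With all rows kept the FDR was 0.0727 and with sex as a term 0.0582, at log2 differences of -0.85 and -0.87. At 70% 24.1% of its level was left.

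In the anterior hindwing at 50%, 1.4% of 13250 rows were called and 0 of the 200 members. The unadjusted p was under 0.05 there in 22 members, 11.0%, and in 13.9% of all rows. The 22 became 55 without individual 4, and that count was not made over all rows. Whether members differed less often than all rows thus depended on individual 4 and is left undecided. DESeq2 called 9 members, of 200, and 7.02% of all rows. The smallest FDR belonged to MSTRG.17040, lower in cythera at 45.1, 55.4, 46.3 and 61.8 CPM against 123, 78.6, 159 and 158 CPM (log2 difference -1.19, SE 0.23, edgeR FDR = 0.0547). Next was MSTRG.21076, a row of 2 annotated IDs, at 62.2, 28.5, 74.2 and 14.5 CPM in cythera against 9.48, 8.61, 7.81 and 10.7 CPM in rosina (log2 difference 2.41, SE 0.49, edgeR FDR = 0.0597). Neither gene overlapped between the subspecies in that region. Individual 4 was the lowest cythera individual in MSTRG.21076, and without it 5 members were called, these 2 among them at edgeR FDR of 0.0367 and 0.0177, where 2.48% of all rows were called. Without individual 4 the count in the forewing and posterior hindwing was also 5, with 2.29% of all rows called. The median log2 difference over members was 0.19 in the anterior hindwing with all individuals and -0.07 without individual 4, against 0.02 over all rows with all individuals. In the forewing and posterior hindwing the 0.08 became -0.05 without individual 4 and -0.01 with sex as a term, so the sign of these small medians was not stable.

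At 70% no row was called between the subspecies with all labelled individuals. In the forewing and posterior hindwing the share called was 0% of 12138 rows, with 184 members tested, and in the anterior hindwing 0% of 12296 rows, with 187 members tested. The 16 and 13 members left out were too low there for the filter. The unadjusted p was under 0.05 in 18 members (9.78%, against 7.28% of all rows) and 23 members (12.3%, against 7.99%), and DESeq2 called 4 and 5 members and 1.25% and 1.46% of all rows. Without individual 13, edgeR called 31 rows (0.24%) and 50 rows (0.382%), of which 0 and 1 were members.

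MSTRG.15622 came closest. At 70% it stood in the forewing and posterior hindwing at 11.8, 9.53, 14.1 and 8.54 CPM in cythera and at 3.88, 2.09, 3.87 and 2.32 CPM in individuals labelled rosina. In the anterior hindwing it stood at 10.2, 12.0, 11.6 and 12.6 CPM against 6.00, 1.98, 4.19 and 2.58 CPM. The subspecies did not overlap in either region at 70%, while at 50% they did in both. The log2 differences were 1.83 (SE 0.28, edgeR FDR = 0.106) and 1.77 (SE 0.33, edgeR FDR = 0.254). Individual 13 was the highest of the labelled rosina in both regions, and without it the edgeR FDR was 0.0564 and 0.0486, the second of which passed the threshold.

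MSTRG.24404 stood in the anterior hindwing at 70% at 162, 145, 92.0 and 155 CPM in cythera and at 83.1, 71.5, 57.4 and 57.6 CPM in labelled rosina (log2 difference 1.15, SE 0.22, edgeR FDR = 0.254, or 0.0711 without individual 13). MSTRG.14982 stood in the forewing and posterior hindwing at 59.98, 55.2, 63.4 and 64.4 CPM against 37.6, 41.7, 44.5 and 36.2 CPM (log2 difference 0.58, SE 0.12, edgeR FDR = 0.275, or 0.146 without individual 13). Both were without overlap and neither passed the test. All 4 labelled rosina at 70% were male against 2 of 4 cythera, so sex and subspecies were partly joined at this stage.

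**Figure D4:**
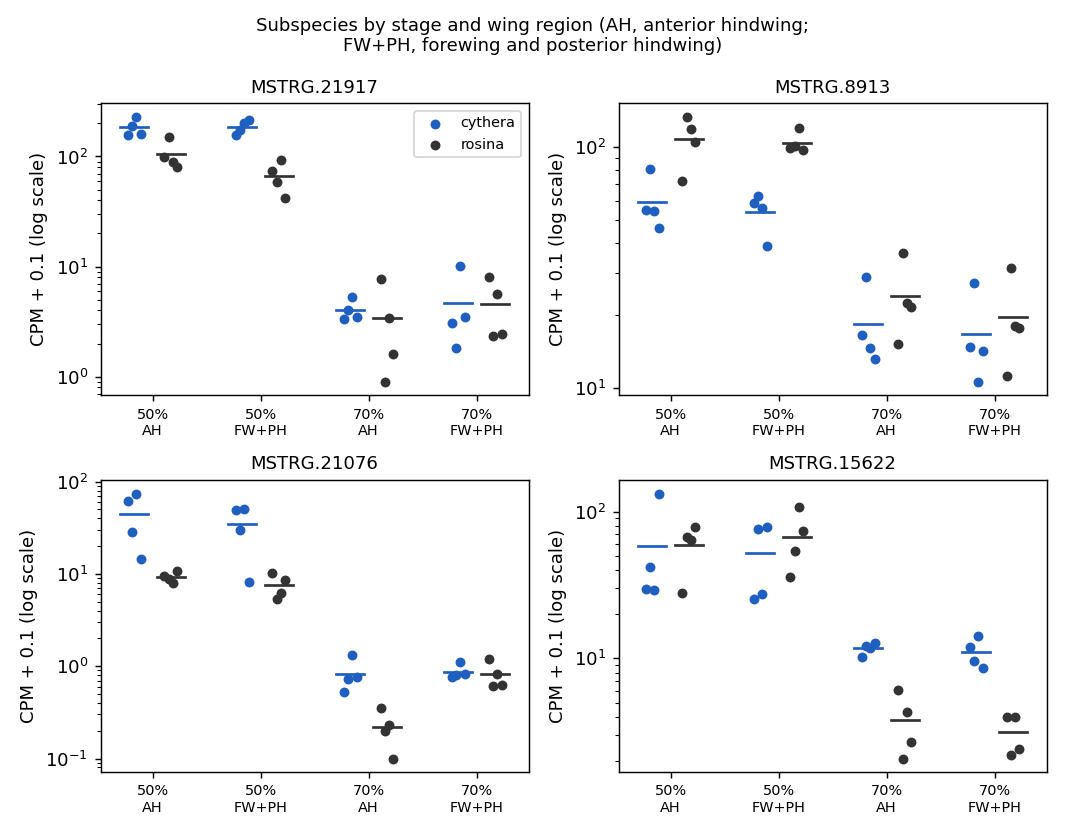
CPM plus 0.1 (log scale) of MSTRG.21917, MSTRG.8913, MSTRG.21076 and MSTRG.15622 by stage and wing region; each point is 1 individual (n = 4 per group, blue cythera, black rosina as labelled) and bars are means. MSTRG.21917 and MSTRG.8913 were apart at 50% in the forewing and posterior hindwing (FDR = 0.0215 and 0.0357 by edgeR), and MSTRG.15622 was apart at 70% without passing the test (FDR = 0.106 and 0.254 by edgeR).

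Whether the fall itself differed between subspecies was tested as an interaction of stage and subspecies in the forewing and posterior hindwing. The share called was 0% of 14722 rows and 0 of 200 members, with an unadjusted p under 0.05 in 23 members, 11.5%, and 6.70% of all rows. DESeq2 called 5 members and 0.72% of all rows. The smallest FDR belonged to MSTRG.20082 (0.494 by edgeR), whose counts at 70% were mostly 0, and MSTRG.4331 (0.537 by edgeR).

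Wing regions were compared at 70% within individuals. The rule had held the difference between regions small at 50% only, where the members ran from -0.47 to 0.48 on the log2 scale. In the 4 cythera alone, 0.327% of 12534 rows were called and 0 of 188 members, with an unadjusted p under 0.05 in 27 members, 14.4%, and 8.64% of all rows. DESeq2 called 4 members and 1.42% of all rows, and the smallest edgeR FDR, of MSTRG.15999, was 0.166. In all 8 individuals, a comparison that does not use the subspecies labels, 3.63% of 14692 rows were called and 16 of 191 members, 8.38%. An unadjusted p under 0.05 was found in 58 members, 30.4%, and in 15.7% of all rows. Of the 16 called, 7 were higher in the anterior hindwing and 9 in the rest of the wing. The log2 differences ran from 0.26 to 1.59 in size, and 2 exceeded 1. The count was 8 to 10 without individual 9, 11, 13, 14, 15 or 16, the lowest without individual 13, and was 19 without individual 10 and 17 without individual 12. Without individual 13 the 8 called were all among the 16, and 1.96% of all rows were called. The FDR of single genes given below are from all 8 individuals.

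Both differences over 1 were genes left higher in the anterior hindwing. MSTRG.25009 was at 9.83 to 39.2 CPM there, with a median of 28.9 CPM, and at 7.96 to 12.8 CPM in the rest of the wing, where the median was 9.93 CPM, after TMM scaling. Its log2 difference was -1.36 (SE 0.18, edgeR FDR = 0.00177) and it was negative in 8 of 8 individuals. By individual it was -1.63 and -1.53 in cythera males 9 and 11, -0.25 and -0.48 in cythera females 10 and 12, and -1.25 to -1.93 in the 4 labelled rosina, all male.

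MSTRG.3041 was at 34.1 to 323 CPM in the anterior hindwing, with a median of 179 CPM, and at 30.2 to 68.0 CPM in the rest of the wing, with a median of 46.6 CPM. Its log2 difference was -1.59 (SE 0.24, edgeR FDR = 0.00354), again negative in 8 of 8. In the anterior hindwing, by total counts, it stood at 198.2 and 232 CPM in cythera males 9 and 11, at 49.8 and 30.8 CPM in cythera females 10 and 12, and at 134 to 351 CPM in the labelled rosina. The log2 ratio within individuals was -1.70 to -2.23 in the 6 males and -0.38 and -0.17 in the 2 females. At 50% the gene was at 648 to 1426 CPM in the anterior hindwing and 458 to 2205 CPM in the rest.

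The same order by sex was seen in others of the genes called lower in the forewing and posterior hindwing. In 5 of the 7 both females lay nearer to 0, or above it, than each of the 6 males. They were MSTRG.25009, MSTRG.3041, MSTRG.9484, MSTRG.6331 and MSTRG.15654. MSTRG.9484 had ratios of -0.15 and -0.33 in females and -0.34 to -0.80 in males, MSTRG.6331 -0.12 and -0.20 against -0.28 to -0.58, and MSTRG.15654 0.28 and -0.37 against -0.63 to -1.11. Among the 9 genes called higher, both females lay below each male in 1, MSTRG.25021. This order was noticed in the values, rests on 2 females of 1 subspecies and was not tested. It was not counted over the other rows called between regions, so it cannot be read as a trait of the members.

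Genes called higher in the forewing and posterior hindwing differed less. MSTRG.13346 was at 1.43 to 10.2 CPM in the anterior hindwing, with a median of 7.21 CPM, and at 6.96 to 16.5 CPM in the rest, with a median of 13.1 CPM (log2 difference 0.93, SE 0.15, edgeR FDR = 0.00557). MSTRG.4331 had a log2 difference of 0.71 (SE 0.12, edgeR FDR = 0.00615) and MSTRG.887, among the 10 that fell most, 0.59 (SE 0.13, edgeR FDR = 0.0298). MSTRG.25021, the most abundant member at 50%, had a log2 difference of 0.46, and MSTRG.22502 and MSTRG.15999 of 0.47 and 0.43. The remaining 3 were MSTRG.22676, MSTRG.20667 and MSTRG.13508, at 0.46, 0.28 and 0.26.

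**Figure D5:**
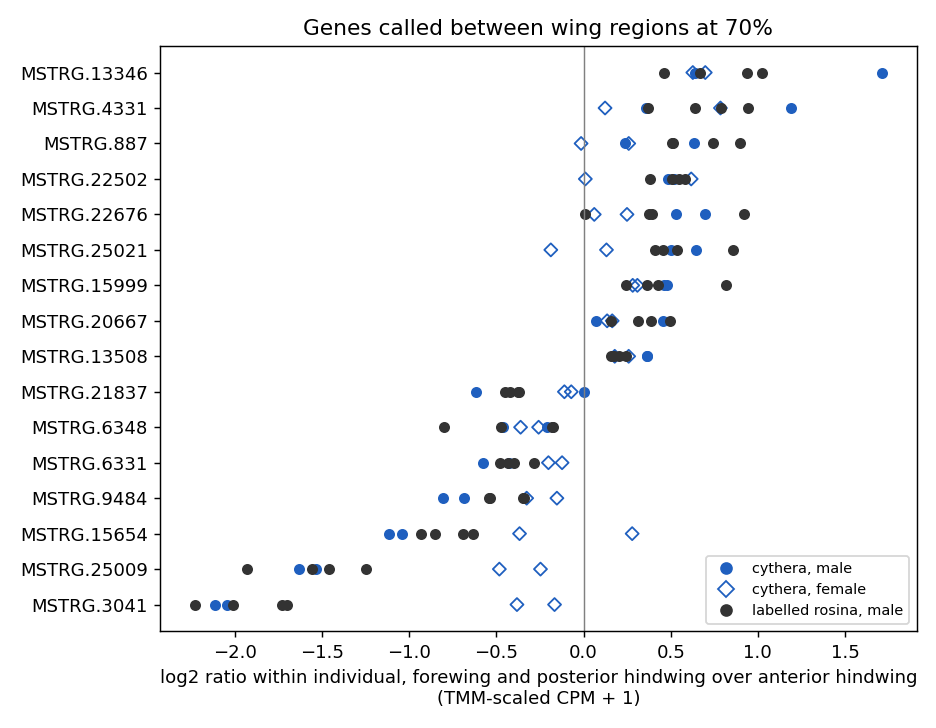
Log2 ratio of the forewing and posterior hindwing to the anterior hindwing within each of 8 individuals at 70% (TMM-scaled CPM plus 1) for the 16 genes called between regions; filled points are males, open diamonds the 2 cythera females, blue cythera and black labelled rosina. MSTRG.25009 and MSTRG.3041 lie farthest to the left, at -1.25 to -2.23 in the 6 males and -0.17 to -0.48 in the 2 females.

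The summed level of all 200 members did not differ between regions in a way that held under every scaling. By total counts the anterior hindwing held 1.04 to 1.18 times the share of the forewing and posterior hindwing of the same individual at 70%, with a median of 1.11, and was higher in 8 of 8. After TMM scaling the ratio was 0.908 to 1.08, with a median of 1.01, and higher in 5 of 8. With RLE scaling its median was 1.00 and it was higher in 4 of 8.

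Sex was compared at 50% in the forewing and posterior hindwing, in 4 females and 4 males with subspecies as a term. The share called was 0.0743% of 16160 rows and 0 of 200 members. The unadjusted p was under 0.05 in 59 members, 29.5%, against 7.45% of all rows, and DESeq2 called 26 members, of 200, and 1.94% of all rows. The log2 difference, female minus male, was under -1 in 39 members and over 1 in 4, cuts that were not counted over all rows. Its median was -0.11 over members and -0.01 over all rows. Without individual 4, a male, 25 members were under -1 and 2 over 1. The 59 members with an unadjusted p under 0.05 became 27 to 74 when 1 individual was left out, with 27 without individual 7, 32 without individual 3, 36 without individual 1 and 58 without individual 4.

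HmelUGT44A4 (MSTRG.18465) had the smallest FDR for sex. In that region it stood at 63.7, 49.5, 57.9 and 67.4 CPM in females 1, 3, 6 and 8 and at 156, 260.2, 123 and 306 CPM in males 2, 4, 5 and 7, without overlap (log2 difference -1.79, SE 0.30, edgeR FDR = 0.242). Next was MSTRG.25397, at 19.6, 12.7, 17.8 and 24.5 CPM in females and at 38.3, 34.7, 38.3 and 38.1 CPM in males (log2 difference -0.99, SE 0.18, edgeR FDR = 0.282). Neither passed the test. At 70%, as the mean of both wing regions, HmelUGT44A4 stood at 26.8 and 32.7 CPM in the 2 cythera females and at 29.5 and 20.9 CPM in the 2 cythera males. In the forewing and posterior hindwing alone it stood at 27.6 and 33.1 CPM in these females and at 23.1 and 21.1 CPM in these males. The sexes were not tested at that stage because all individuals labelled rosina were male.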

How the data were processed

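Reads from a TruSeq stranded mRNA kit were processed by the authors, whose processing notes name Trimmomatic 0.38, HISAT2 2.1.0, SAMtools 1.9, StringTie 1.3.5 and edgeR. The deposited values were raw counts per assembled locus in 32 libraries, not normalized. The counting step and genome build are not given in the sources used here. Sequences and genome positions were not analysed here. The members, the named genes and the tests were chosen with earlier results of these data known.

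Counts were fitted in edgeR 4.0.16 (R 4.3.3, limma 3.58.1) by the quasi-likelihood F-test in its legacy form, after filterByExpr (minimum count 10) and TMM scaling, with Benjamini-Hochberg adjustment over all rows tested and calls at FDR under 0.05. The SE of a log2 difference was its size divided by the square root of F. Only the libraries compared entered each fit. DESeq2 1.42.0 was an alternative. For the wing regions, individual was a block, since the 2 libraries of a number came from the same animal by the labels; their deviations from group means correlated at 0.496 to 0.964 over the members (median 0.758, 16 pairs). No pair of libraries of a group was a duplicate: chi-square divided by its degrees of freedom was at least 73.1 in 48 pairs. Descriptions used Python 3.11.15 and matplotlib 3.10.9.

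On simulated data at the size of the subspecies comparison (50%, forewing and posterior hindwing), the edgeR fit recovered 2 of 60 genes changed 2-fold, 27 of 65 changed 4-fold and 42 of 64 changed 8-fold, with 4 false calls; DESeq2 recovered 14, 42 and 59 with 50 false calls. At the size of the wing-region comparison in both subspecies edgeR recovered 46 of 67, 58 of 66 and 66 of 66, with 4 false calls, and DESeq2 49, 64 and 66, with 34.

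Genes were named as the 10 with the lowest ratio, the 10 most abundant at 50%, those at the edge of the list, the called genes of each comparison (up to 5 per direction; the 2 smallest p where none was called), the 5 with the highest and lowest share left, the 5 most variable at 50%, those with a name in the table, and the 5 other rows most alike at 50%. Genes named beyond these, among them the rest of the 16 called between regions, MSTRG.23987, MSTRG.13558, MSTRG.16928, MSTRG.25175 and the pairs of neighbours, were chosen after their values were seen.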

Additional observations from a re-analysis of the deposited data

Results flagged for a closer look

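Groups of 4 values of 1 subspecies and stage were examined for a sample far from the other 3, by Dixon's test at 95%. The 108 groups held the summed level of the members and the named genes that were called, by region, and the second scaling axis. The summed level was flagged in no group, that of individual 4 included. Of these, 11 held such a sample, and chance gives about 1 in 20, or 5.4. MSTRG.6348 accounted for 4. At 70% it stood at 153 CPM in individual 11 in the anterior hindwing (the other cythera 41.9 to 50.8 CPM) and 99.4 CPM in its forewing and posterior hindwing (32.6 to 42.0 CPM). Individual 15 stood at 149.7 CPM (47.8 to 57.3 CPM in the other labelled rosina) and 71.9 CPM (34.6 to 39.9 CPM).

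MSTRG.15999 was high in cythera individual 2 at 50%, at 1137 CPM in the anterior hindwing (712 to 768 CPM in the other 3) and 927 CPM in the rest (703 to 724 CPM). Individual 9 had 21.8 CPM of MSTRG.4331 in the anterior hindwing at 70% (10.4 to 12.3 CPM), and individual 10 had 4.57 CPM of MSTRG.887 in the forewing and posterior hindwing (5.31 to 5.42 CPM). MSTRG.8913, called between subspecies, was at 120 CPM in rosina individual 7 (97.3 to 101 CPM). Individual 13, labelled rosina, had 184 CPM of MSTRG.9484 in the anterior hindwing (68.6 to 82.8 CPM) and lay at -0.79 on the second scaling axis (1.26 to 1.66 in the other 3). The wing-region call of MSTRG.9484 at 70% compares libraries within individuals and does not use that label.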

How the results depend on the processing

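The count of members called depended on the tool, the pairing and single individuals. DESeq2 called 6 (50%, forewing and posterior hindwing), 9 (50%, anterior hindwing), 4 and 5 (70%, in the same order) between subspecies, 4 between regions in cythera, 27 between regions in both subspecies, 26 between sexes and 5 for the interaction, where edgeR called 2, 0, 0, 0, 0, 16, 0 and 0. In the same order DESeq2 called 6.09%, 7.02%, 1.25%, 1.46%, 1.42%, 6.51%, 1.94% and 0.72% of all rows. Without a filter on low counts edgeR called 1 between subspecies at 50% in the forewing and posterior hindwing, and with sex as a term 1 in the anterior hindwing. Without the replicate block, that is without pairing the regions of an individual, 1 member was called between regions in both subspecies, against 16 with it, and 0 in cythera either way. Leaving out 1 individual at a time gave 0 to 5 members between subspecies at 50% in either region (5 without individual 4), 0 at 70% in the forewing and posterior hindwing, 0 to 1 in the anterior hindwing (1 without individual 13), 0 between regions in cythera, 8 to 19 in both subspecies, and 0 for sex and for the interaction. The rule reapplied without 1 individual kept 163 to 197 of the 200. Values of single genes and of untested summaries were compared under alternatives. Of these, 244 stayed on the same side of the threshold or, where untested, within the spread. Of the rest, 31 lost the call, 17 gained it, 2 untested values moved by more than the spread and 0 changed sign. The causes were not tested. Chosen after seeing the data were the summed level, class medians and per-individual gene counts without individual 4. So was the summed level without the 10 most abundant members. The TMM and RLE scalings of the share left and of the summed ratio between regions were also chosen then. The subspecies fit recovered few 2-fold changes in simulation, and the 27 members under 1 CPM at 70% rest on few counts there.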

Other observations

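Outside the 200, the annotated rows whose levels followed the mean profile of the members most closely over the 16 libraries at 50% were MSTRG.17672 (Pearson r = 0.949), MSTRG.12793 (0.931), MSTRG.15146 (0.924), MSTRG.24499 (0.922) and MSTRG.15395 (0.914). The libraries come in pairs from 8 individuals, so the values are descriptions. Their mean levels at 50% and 70% were 92.6 and 44.1 CPM for MSTRG.17672, 41.6 and 13.2 CPM for MSTRG.12793, and 92.7 and 80.9 CPM for MSTRG.15146. They were 73.9 and 32.7 CPM for MSTRG.24499 and 50.2 and 15.9 CPM for MSTRG.15395. A profile like the mean profile of the members at 50% thus occurred in MSTRG.15146, whose level at 70% was close to that at 50%. How closely single members followed that mean profile was not measured.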
